A study of Mus musculus with 6 samples.

Results

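The genes examined are 41 mouse genes of the epidermis and of epithelial junctions, listed to ask whether the skin programme of the transcription factor KLF4 appears in myeloid cells. A gene was taken from the arrays through the RefSeq accession of its probes, with its brightest probe where it had more than 1, and all 41 were found among the 20263 genes matched on the array. Both arrays of some group read 25 of these well above background, and these 25 were tested, among 13245 genes tested in all. The list was chosen by function and not by its values on these arrays, although with earlier results of the same data known.

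Total RNA came from Tot2, a line of myeloid progenitors derived from an Irf8 knockout mouse, and all groups share that knockout. The groups differed in the MSCV retrovirus they had received: MSCV-puro as the control, MSCV-IRF8FLAG or MSCV-KLF4FLAG, the latter pair carrying a FLAG-tagged factor. The cytokine given throughout was granulocyte-macrophage colony-stimulating factor at 5 ng/ml, and all cells were transduced with 4 µg/ml polybrene, were selected with 2 µg/ml puromycin from 48 hr and were harvested on day 4. Each group had 2 arrays, 1 from each of 2 independent experiments of this single cell line, so the p-values measure the spread between these cultures.

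The outer epidermis is built as basal keratinocytes stop dividing, replace their keratins, crosslink a cornified envelope of plakins and small proline-rich proteins, and seal it with ceramides. KLF4 is known in skin for driving the late steps of this barrier, and the grainyhead-like factors and p63 for driving the epidermal fate as a whole. Desmosomes, adherens junctions and tight junctions hold epithelial cells together and are not structures that myeloid progenitors are known for. In monocytes, KLF4 is known instead as a factor of differentiation, acting downstream of IRF8.

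The delivered factors were checked first, with each signal written as log2 of the processed intensity over the 75th percentile of its array. Klf4 lay at -1.62 and -1.28 with the control vector, at 4.46 and 4.61 on arrays of the IRF8 vector and at -1.56 and -1.33 on those of the KLF4 vector. The arrays of the KLF4 vector thus overlapped the control for Klf4 (log2 difference 0.00 ± 0.16 SE, n = 2 arrays per group, limma adjusted p = 0.987), which goes against their label, and those of the IRF8 vector were high. Irf8 lay at 0.49 and 0.64 in control, 2.94 and 3.05 with the IRF8 vector and 2.18 and 2.16 with the KLF4 vector. Each of these genes had 1 probe, and where it lies on the transcript or the vector was not analysed here, so the terms KLF4-labelled and IRF8-labelled cells are used here, and every direction rests on the labels. The 75th percentile ran from 436 to 974, 47.1% to 56.8% of the probes of an array exceeded background clearly, and across genes the arrays correlated at r = 0.993 to 0.995 within groups and 0.889 to 0.960 between them.

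Promoter windows are shown for Krtdap, Grhl3 and Emp1, which with Perp are the 4 members called higher in KLF4-labelled cells than in control. They are RefSeq windows of 300 bases on GRCm38.p6, written 5′ to 3′ on the strand of the gene, with each CACCC, the core of Kruppel-like factor sites, or its reverse GGGTG in capitals.
Krtdap, chr7:30787655-30787954, plus strand: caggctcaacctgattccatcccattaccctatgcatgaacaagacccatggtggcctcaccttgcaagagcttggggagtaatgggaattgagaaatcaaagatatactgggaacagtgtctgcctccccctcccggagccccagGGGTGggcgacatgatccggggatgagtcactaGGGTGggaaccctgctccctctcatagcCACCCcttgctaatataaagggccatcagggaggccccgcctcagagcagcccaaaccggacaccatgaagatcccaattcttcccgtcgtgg
Grhl3, chr4:135573583-135573882, minus strand: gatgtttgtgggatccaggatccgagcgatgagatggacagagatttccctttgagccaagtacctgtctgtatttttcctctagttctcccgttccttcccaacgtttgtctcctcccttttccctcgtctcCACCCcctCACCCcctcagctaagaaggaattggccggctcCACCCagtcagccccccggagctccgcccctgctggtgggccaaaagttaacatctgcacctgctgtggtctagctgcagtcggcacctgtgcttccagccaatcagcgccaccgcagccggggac
Emp1 first window, chr6:135362681-135362980, plus strand: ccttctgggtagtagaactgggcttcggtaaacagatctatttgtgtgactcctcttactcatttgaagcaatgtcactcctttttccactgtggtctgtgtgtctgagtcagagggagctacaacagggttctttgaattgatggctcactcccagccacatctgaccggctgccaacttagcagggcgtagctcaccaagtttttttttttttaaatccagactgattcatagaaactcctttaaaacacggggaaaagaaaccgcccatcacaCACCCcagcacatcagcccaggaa
Emp1 second window, chr6:135367243-135367542, plus strand: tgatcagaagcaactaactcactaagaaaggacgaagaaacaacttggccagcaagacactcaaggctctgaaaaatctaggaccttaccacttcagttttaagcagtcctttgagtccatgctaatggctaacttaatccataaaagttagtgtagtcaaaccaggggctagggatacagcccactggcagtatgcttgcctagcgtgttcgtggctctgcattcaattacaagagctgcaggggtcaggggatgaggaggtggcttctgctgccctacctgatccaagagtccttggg
The Krtdap and Grhl3 windows each held 3 such cores, the first Emp1 window held 1 and its second window 0. CACCC on either strand was found in 28 of the 33 windows listed for 26 of the 41 genes (84.8%), against 57.5% of all 32851 windows of the same length. The 4 windows shown held it in 3 (75%), so it was no more common in them than among the members at large. The grainyhead-like motif AACCGGTT was in 0 of the 33 windows and in 0.146% of all, its looser form AACNNGTT in 1 (3.03%, against 4.20%), and the interferon response letters GAAANNGAA on either strand in 2 (6.06%, against 8.56%). These matches describe letters in the windows and no binding.

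Most of the list was dim. The number of members well above background on both arrays was 15 in control (36.6%), 21 in IRF8-labelled (51.2%) and 22 in KLF4-labelled cells (53.7%), compared with 58.9%, 62.5% and 63.2% of all matched genes. By single arrays, 16 and 23 members were well above background in control, 22 and 26 in IRF8-labelled and 23 and 23 in KLF4-labelled cells, so the first control array was the lowest of the 6 and the second lay within the range of the others. Of the 41 genes, 14 were well above background on all 6 arrays and 9 on 0 arrays.

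**Figure D1:**
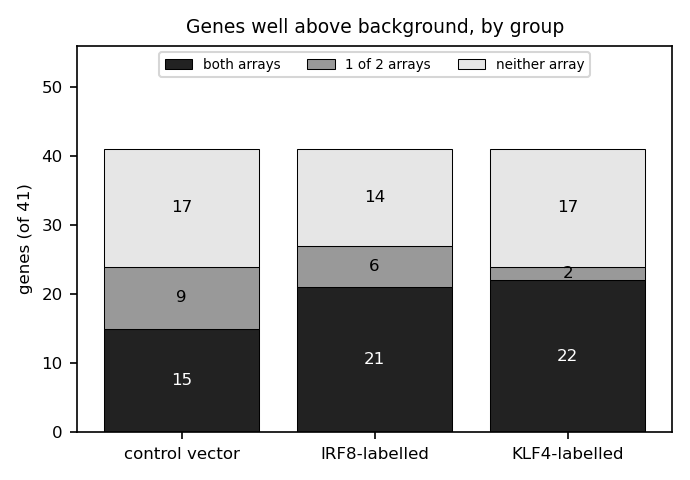
Number of the 41 genes whose probe was well above background on both, 1 or neither of the 2 arrays of each group (y axis, genes). The dark bars rise from 15 in control to 21 in IRF8-labelled and 22 in KLF4-labelled cells, while the number above background on neither array is 17, 14 and 17.

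In KLF4-labelled cells 4 of the 25 tested members were higher than in control and 2 were lower, against 10.4% higher and 8.87% lower over all genes tested (limma, Benjamini-Hochberg adjusted over all 13245). The 4 were Krtdap, Grhl3, Emp1 and Perp, and the 2 were Dmkn and Spint2. In IRF8-labelled cells 7 members were called higher and 7 lower than in control, the latter including Krtdap, which was below background on all 4 arrays and has no order, against 25.8% and 35.7% of all genes. IRF8-labelled cells had 6 members higher and 7 lower than KLF4-labelled cells, against 23.7% and 26.8%. The members' shares were 16% and 8% (KLF4-labelled against control), 28% and 28% (IRF8-labelled against control), and 24% and 28% near those of all genes, and with 25 genes 1 gene is 4% of them. Their median log2 differences were -0.10, 0.03 and 0.14, beside -0.16, -0.13 and -0.01 for all genes.

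Both comparisons with control use the same 2 control arrays. Of the tested members, 6 passed through 1 group alone (Krtdap, Grhl3, Dsp and Cldn4 through KLF4-labelled, Grhl2 and Jup through IRF8-labelled cells), and such genes tend to differ by construction. Of all genes called between KLF4-labelled cells and control, 53.9% were higher, but 86.4% with median scaling, 67.0% with quantile normalization, 65.1% in the deposited value table and 89.4% with scaling to the spike-in probes. The share was 32.4% with the replicate block (2188 higher and 4557 lower), 41.7% with signal required on all 6 arrays and 45.6% with limma's trend and robust settings, so it moved both ways. Between IRF8-labelled and KLF4-labelled cells the share was 46.9%, and 35.0% with median scaling. Without any single array other than the second control one, 0 members were lower in KLF4-labelled cells than in control (limma, with 2 or 3 at an unadjusted p under 0.05). With the experiment as a replicate block, 6 members were higher and 4 lower in KLF4-labelled cells than in control. The block added Spint1 and Grhl2 (limma adjusted p = 0.0200, though below background in both groups) among the higher, and Evpl and Pkp3 among the lower.

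**Figure D2:**
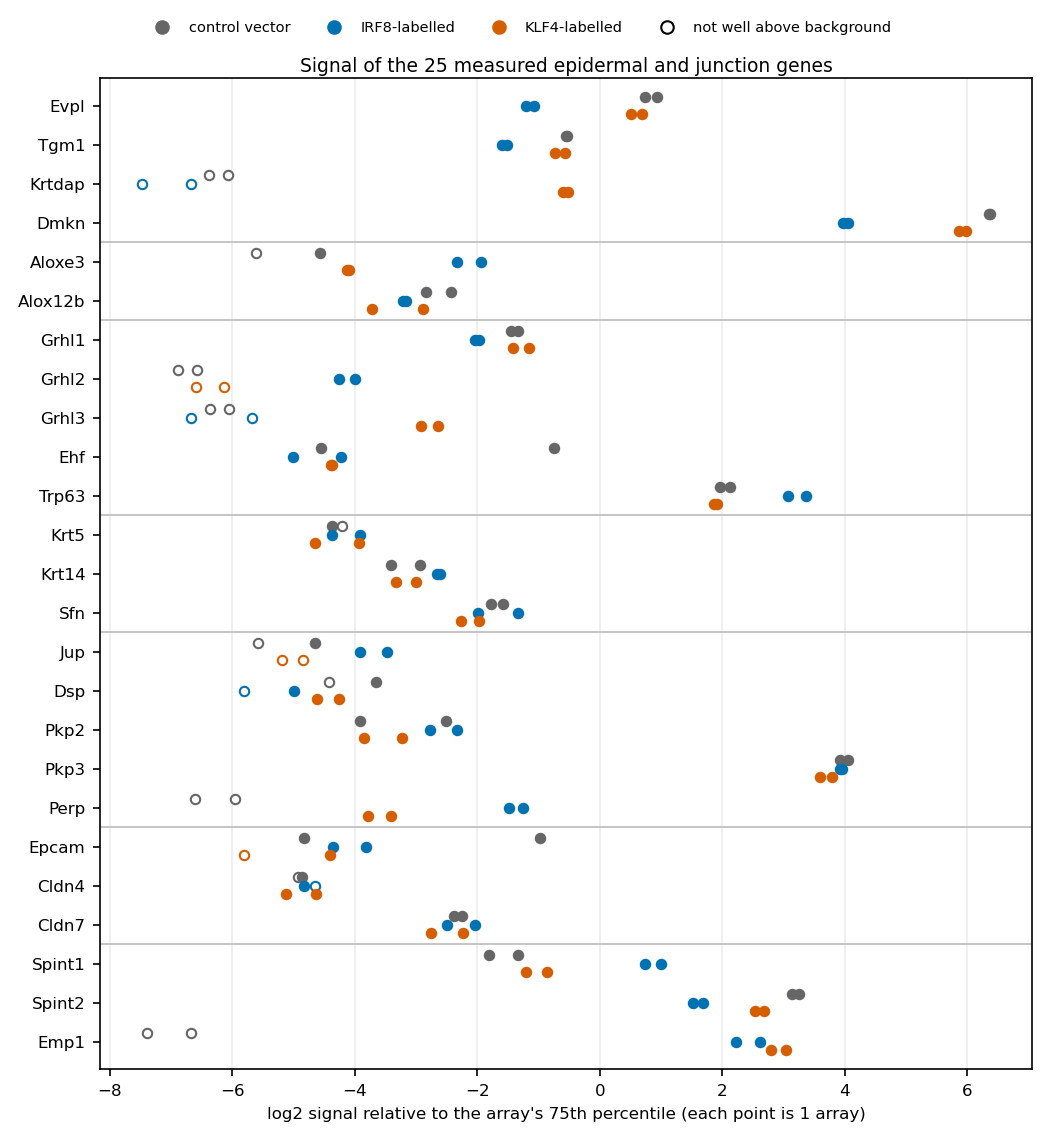
Log2 signal relative to the 75th percentile of the array (x axis) for the 25 tested genes, ordered by role, with 1 point per array coloured by group and open points where the probe was not well above background. Krtdap and Grhl3 have filled points only for the KLF4-labelled arrays, Grhl2 only for the IRF8-labelled arrays, and Emp1 and Perp for both labelled groups but not for control; levels of different genes are not comparable.

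Genes of the cornified envelope were read together with 2 secreted keratinocyte products, Krtdap and Dmkn. In KLF4-labelled cells Krtdap rose and Dmkn fell slightly, while the envelope genes Evpl and Tgm1 were not called in the main fit. In IRF8-labelled cells Evpl, Tgm1 and Dmkn fell. Krtdap, a small protein secreted by differentiating keratinocytes, lay at -6.38 and -6.07 in control, -6.67 and -7.47 in IRF8-labelled and -0.60 and -0.52 in KLF4-labelled cells. It was well above background on the KLF4-labelled arrays alone, and the groups did not overlap. It was at least 19.1-fold higher in KLF4-labelled cells than in control (limma adjusted p = 0.000317) and at least 21.7-fold higher than in IRF8-labelled cells (0.000174). Such a bound is taken against the lowest signal well above background on the dim group's arrays, or the probe's own signal where that is higher. It allows for the dim group's background alone, and not for the spread between arrays or for other processing. Over the alternatives, the lowest log2 difference of Krtdap from control was 2.73, against 4.25 for its bound. Grhl3 in KLF4-labelled and Perp in IRF8-labelled cells, given below, likewise fell to 1.12 and 1.79, against 2.04 and 3.45, and Grhl2 in IRF8-labelled cells to 0.57, against 0.69. The IRF8-labelled minus KLF4-labelled differences shrank to -2.79 for Krtdap and -1.11 for Grhl3, against bounds of -4.44 and -2.23. For Grhl2 that difference shrank to 0.61, against 1.05. The measured difference of Krtdap from control was 5.78 in the first experiment and 5.55 in the second. Between IRF8-labelled cells and control, both below background, the fit called Krtdap lower (limma adjusted p = 0.0475, and 0.0717 with the replicate block) and no order is read from it.

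Dmkn, or dermokine, is another secreted product of keratinocytes, and in the annotation it is the protein-coding gene next to Krtdap on chromosome 7. It was bright in every group, with log2 signals of 6.35 and 6.37 in control, 3.97 and 4.05 in IRF8-labelled and 5.98 and 5.86 in KLF4-labelled cells. The IRF8-labelled arrays were lowest, and the 3 groups did not overlap. The fall in IRF8-labelled cells was 5.10-fold (log2 difference -2.35 ± 0.09 SE, limma adjusted p = 4.69e-05), and a second probe gave -2.37. The fall in KLF4-labelled cells was 1.35-fold (-0.44 ± 0.09, limma adjusted p = 0.0318) and past the threshold in 5 of 17 alternatives, whose adjusted p ran from 0.0128 to 0.963. The neighbours thus moved apart in KLF4-labelled cells, with Krtdap high where Dmkn was at or slightly below its control level.

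Evpl encodes envoplakin, a plakin that scaffolds the envelope, and lay at 0.73 and 0.94 in control, -1.20 and -1.07 in IRF8-labelled and 0.50 and 0.69 in KLF4-labelled cells. Tgm1, the transglutaminase that crosslinks the envelope, lay at -0.54 and -0.56, then -1.60 and -1.52, then -0.56 and -0.73. For both genes the IRF8-labelled arrays lay below the other 4. Evpl was 3.92-fold lower (log2 difference -1.97 ± 0.12 SE, limma adjusted p = 0.000184) and Tgm1 2.01-fold lower (-1.01 ± 0.10, 0.00068) in IRF8-labelled cells than in control. Between KLF4-labelled cells and control the 95% intervals were -0.56 to 0.07 for Evpl (called lower with the replicate block, limma adjusted p = 0.0265) and -0.34 to 0.15 for Tgm1. The classical envelope precursors were near background: Ivl, encoding involucrin, on 0 arrays, and Ppl, encoding periplakin, and Sprr1a, a small proline-rich protein, on 2 arrays each.

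The paired lipoxygenases of the barrier act in sequence on the linoleate of epidermal ceramides. Aloxe3 lay at -5.61 and -4.58 in control, -2.32 and -1.94 in IRF8-labelled and -4.13 and -4.10 in KLF4-labelled cells, with 1 of the control arrays above background. It was 7.79-fold higher in IRF8-labelled cells than in control (log2 difference 2.96 ± 0.36 SE, limma adjusted p = 0.00148) and 3.95-fold higher than in KLF4-labelled cells (0.00838). Its KLF4-labelled arrays lay above both control arrays, but the difference was not called (0.98 ± 0.36, limma adjusted p = 0.117) unless the second control array was left out (limma adjusted p = 0.0162, the lowest of 16 alternatives up to 0.715). Alox12b, the enzyme that acts before it, lay at -2.84 and -2.43, then -3.21 and -3.16, then -2.89 and -3.72, with no call in any comparison (limma adjusted p = 0.174, 0.174 and 0.764). The second Alox12b probe gave an IRF8-labelled minus control difference of 0.36, against -0.55 for the probe used, so its probes disagree in sign.

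Each grainyhead-like factor had its own pattern: Grhl3 was measured in KLF4-labelled cells, Grhl2 in IRF8-labelled cells, and Grhl1 in all groups with lower signals in IRF8-labelled cells. Grhl3, the member of the family most tied to the skin barrier, lay at -6.37 and -6.05 in control, -6.67 and -5.68 in IRF8-labelled and -2.91 and -2.64 in KLF4-labelled cells. It was at least 4.11-fold higher in KLF4-labelled cells than in control (limma adjusted p = 0.00361), by 3.45 and 3.41 on the log2 scale in the 2 experiments, and at least 4.68-fold higher than in IRF8-labelled cells (0.00144). Grhl2 lay at -6.57 and -6.89, then -3.99 and -4.26, then -6.14 and -6.59, so the IRF8-labelled arrays were above background and the other 4 were not. It was at least 1.61-fold higher in IRF8-labelled cells than in control (limma adjusted p = 0.000377), a call lost with normexp background correction and with the mean of its probes (limma adjusted p = 0.194 and 0.0562, within a range of 6.54e-06 to 0.194 over 16 alternatives). The second Grhl2 probe was above background on 0 arrays.

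Grhl1 lay at -1.44 and -1.34 in control, -1.97 and -2.03 in IRF8-labelled and -1.42 and -1.15 in KLF4-labelled cells. It was 1.53-fold lower in IRF8-labelled cells than in control (log2 difference -0.61 ± 0.12 SE, limma adjusted p = 0.00839), lost with spike-in scaling (0.125, the highest of 17 alternatives from 0.00563). Trp63, encoding p63, the factor that maintains basal keratinocytes, lay at 2.13 and 1.97, then 3.36 and 3.07, then 1.91 and 1.87. The IRF8-labelled arrays were the highest, 2.25-fold above control (1.17 ± 0.13, limma adjusted p = 0.00113) and 2.51-fold above KLF4-labelled (0.00127). The other Trp63 probe was above background on 0 arrays, and with the mean of its 2 probes the call against control was lost (limma adjusted p = 0.186, the highest of 17 alternatives from 0.000344). These probes disagree on whether the gene is measured at all, so the Trp63 values are those of a single probe.

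Ehf, an epithelial ETS factor, lay at -0.75 on the first control array against -4.54 on the second, -4.22 and -5.01 in IRF8-labelled and -4.39 and -4.37 in KLF4-labelled cells. A single control array stood apart, as it did for Epcam and Ovol1 among the members, and no difference was called. Without the second control array, Ehf was called lower in both comparisons with control (log2 differences -3.63 and -3.87, limma adjusted p = 0.00706 and 0.00218, the lowest of 17 alternatives each), which rests on the first control array alone, and with spike-in scaling it was called lower in IRF8-labelled cells (-2.09, 0.0185). Elf3, a relative of Ehf, was above background on 0 arrays, and Ovol1, a zinc finger repressor of the epidermis, at -4.12 on the first control array alone.

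Of the member keratins, only Krt5 and Krt14 were tested, and neither changed past the threshold, nor did Sfn, the 14-3-3 protein of stratified epithelium (0 of 3 genes in each comparison by limma, with 0, 1 and 1 at an unadjusted p under 0.05, Krt14 in both cases). Beside the 10.4% to 25.8% higher and 8.87% to 35.7% lower over all genes, 0 of 3 says little. The keratin Krt10, of the wider list below, was called lower in KLF4-labelled cells than in control. Krt5, the basal type II keratin, lay at -4.20 and -4.37 in control, -4.37 and -3.92 in IRF8-labelled and -3.93 and -4.64 in KLF4-labelled cells. Its partner Krt14 lay at -2.94 and -3.40, then -2.62 and -2.66, then -3.0 and -3.32. The Krt5 arrays overlapped in all comparisons, and those of Krt14 were highest in IRF8-labelled cells (log2 difference from control 0.53 ± 0.19 SE, limma adjusted p = 0.0644, and 0.0205 with the replicate block, the lowest of 17 alternatives up to 0.382). Sfn lay at -1.57 and -1.78, then -1.33 and -2.0, then -1.97 and -2.26, and its KLF4-labelled and control arrays differed by -0.44 with an interval of -1.08 to 0.21. Krt8 and Krt19, keratins of simple epithelium, were above background on 0 arrays, and their relative Krt18 on 1 control array.

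Among desmosome genes, Perp rose in both IRF8-labelled and KLF4-labelled cells, and Jup rose and Dsp fell in IRF8-labelled cells. The plakophilins Pkp2 and Pkp3 were not called in the main fit. Perp, a tetraspan protein of desmosomes and a known target of p53 and p63, lay at -5.96 and -6.60 in control, -1.48 and -1.25 in IRF8-labelled and -3.78 and -3.41 in KLF4-labelled cells. The 3 groups did not overlap, and control alone was below background. It was at least 10.9-fold higher in IRF8-labelled cells than in control (limma adjusted p = 0.000112) and 4.69-fold higher than in KLF4-labelled cells (log2 difference 2.23 ± 0.26 SE, 0.00199). In KLF4-labelled cells it was at least 2.33-fold higher than in control (limma adjusted p = 0.00291), a call lost with normexp background correction (log2 difference 0.47, limma adjusted p = 0.345, the highest of 16 alternatives from 2.52e-05).

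Jup encodes plakoglobin, which links cadherins to desmoplakin, and lay at -5.59 and -4.65 in control, -3.47 and -3.92 in IRF8-labelled and -4.85 and -5.19 in KLF4-labelled cells. It was 2.68-fold higher in IRF8-labelled cells than in control (log2 difference 1.42 ± 0.35 SE, limma adjusted p = 0.0184), with 1 of 2 control arrays above background. Against KLF4-labelled cells, where neither array was well above background, the fitted difference was 2.51-fold and is no lower bound (limma adjusted p = 0.0290, and 0.0510 with the replicate block). Over 16 alternatives that adjusted p ran from 0.00927 to 0.257, with 9 past the threshold and a lowest log2 difference of 0.47. The call against control was lost without the first IRF8-labelled array (limma adjusted p = 0.0920), with normexp (0.406) and with no filter (0.0502), the lowest of 16 alternatives being 0.00606. Dsp, encoding desmoplakin, the plakin that anchors keratins, lay at -4.42 and -3.66, then -5.80 and -5.0, then -4.62 and -4.25. It was lower in IRF8-labelled cells than in control (-1.36 ± 0.38, limma adjusted p = 0.0271), where 1 array of each group was above background and the second probe was above it nowhere. That call held in 11 of 16 alternatives and was lost without the first IRF8-labelled, the second control or the first KLF4-labelled array (limma adjusted p = 0.111, 0.0999 and 0.0526, within a range of 0.000521 to 0.166).

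Pkp2 and Pkp3 encode plakophilins, armadillo proteins of the desmosomal plaque. Pkp2 lay at -2.52 and -3.91 in control, -2.78 and -2.33 in IRF8-labelled and -3.86 and -3.23 in KLF4-labelled cells. It was called higher in IRF8-labelled cells than in control without the first control array (log2 difference 1.35, limma adjusted p = 0.0363, the lowest of 17 alternatives up to 0.934). Pkp3 was bright and nearly level at 3.93 and 4.06, then 3.96 and 3.92, then 3.59 and 3.79, the KLF4-labelled arrays being the lowest (log2 difference from control -0.30 ± 0.11 SE, limma adjusted p = 0.109, and 0.0408 with the replicate block). The desmosomal cadherins Dsg2 and Dsc2 were each above background on 1 IRF8-labelled array, Dsc2 at -2.05 on the first and -7.38 on the second, and Pkp1 was above background on 0 arrays.

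Member genes of adherens, tight and gap junctions gave no call in any comparison (0 of 3 tested genes by limma, and 0 at an unadjusted p under 0.05). Beside the 10.4% to 25.8% higher and 8.87% to 35.7% lower over all genes, 0 of 3 says little. Epcam, an adhesion molecule of simple epithelium, lay at -0.97 and -4.83 in control, -3.81 and -4.36 in IRF8-labelled and -4.40 and -5.82 in KLF4-labelled cells, again with the first control array apart. Without the second control array it was called lower in KLF4-labelled and in IRF8-labelled cells (limma adjusted p = 0.0281 and 0.0186, the lowest of 16 alternatives each). Cldn4, a claudin of tight junctions, lay at -4.92 and -4.86, then -4.64 and -4.83, then -4.63 and -5.12, near the background limit throughout. Its relative Cldn7 lay at -2.25 and -2.37, then -2.04 and -2.49, then -2.23 and -2.76, with overlapping groups and intervals of -0.78 to 0.42 (KLF4-labelled minus control) and -0.56 to 0.65 (IRF8-labelled minus control). The other 5 were not measured in any group: Cldn1, Ocln, Tjp1 and the connexin Gjb2 on 0 arrays, and Cdh1, encoding E-cadherin, on 1 IRF8-labelled array with -4.93 and -4.83 in that group. The 16 untested members spanned -7.55 to -2.05.

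The protease inhibitors Spint1 and Spint2, which block the membrane protease matriptase, moved in opposite directions in IRF8-labelled cells. Spint1 lay at -1.80 and -1.33 in control, 0.74 and 1.00 in IRF8-labelled and -1.21 and -0.86 in KLF4-labelled cells. Spint2 lay at 3.26 and 3.14, then 1.68 and 1.52, then 2.68 and 2.53. The IRF8-labelled arrays were the highest for Spint1 and the lowest for Spint2, and the KLF4-labelled arrays lay between the other groups for both. Spint1 was 5.41-fold higher (log2 difference 2.44 ± 0.22 SE, limma adjusted p = 0.000541) and Spint2 3.03-fold lower (-1.60 ± 0.11, 0.000244) in IRF8-labelled cells than in control. The second probes gave 2.15 for Spint1 and -0.79 for Spint2. Spint2 was 1.51-fold lower in KLF4-labelled cells than in control (-0.60 ± 0.11, limma adjusted p = 0.0249), past the threshold in 8 of 17 alternatives (0.00489 to 0.743), and Spint1 was not called (0.54 ± 0.22, limma adjusted p = 0.143, and 0.0123 with the replicate block).

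Emp1, a tetraspan epithelial membrane protein, had the largest differences of the list from control. It lay at -6.67 and -7.39 in control, 2.22 and 2.61 in IRF8-labelled and 2.79 and 3.04 in KLF4-labelled cells. Control was below background and the other 4 arrays were far above it. The difference was at least 212-fold in KLF4-labelled cells (limma adjusted p = 6.63e-05) and at least 150-fold in IRF8-labelled cells (2.45e-05). Both calls held in 16 of 16 alternatives, whose lowest log2 differences were 6.33 and 5.79, against 7.73 and 7.23 for the bounds. The KLF4-labelled arrays lay above the IRF8-labelled ones without a call (log2 difference of IRF8-labelled minus KLF4-labelled -0.50, 95% interval -1.22 to 0.22, limma adjusted p = 0.202).

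**Figure D3:**
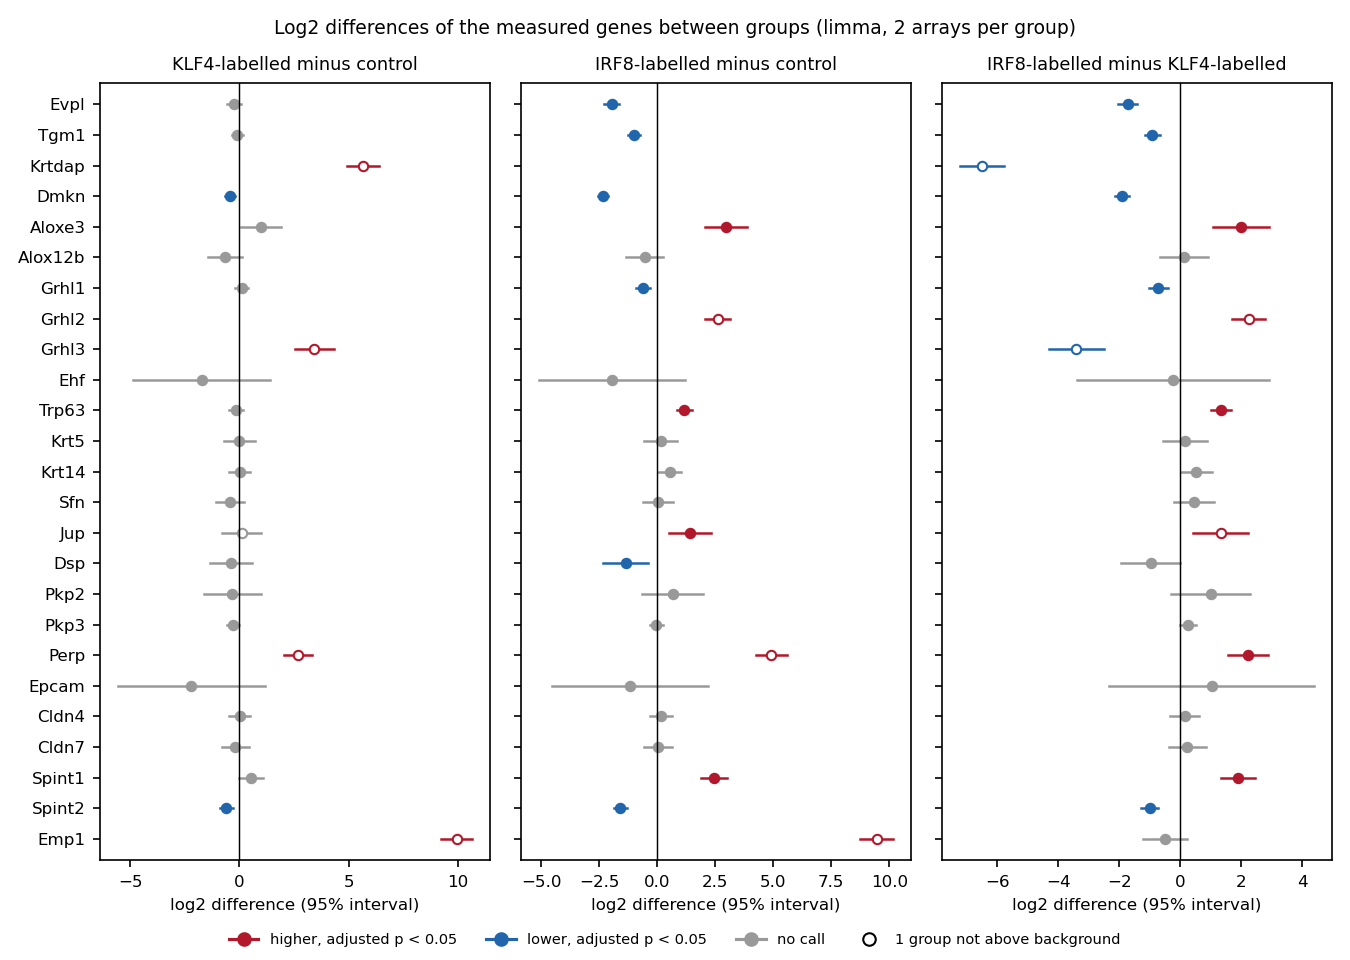
Log2 difference (x axis) with its 95% interval for each tested gene in the 3 comparisons, coloured by call at a limma adjusted p under 0.05; open points mark comparisons with 1 group on no array above background, whose fitted size is not a bound, and genes with both groups below it are not drawn. The first panel has 4 genes to the right and 2 slightly to the left, while IRF8-labelled cells differ from KLF4-labelled cells in 13 genes on both sides of 0.

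Between IRF8-labelled and KLF4-labelled cells the members called were Krtdap, Grhl3, Dmkn, Evpl, Spint2, Tgm1 and Grhl1, lower in IRF8-labelled cells, and Perp, Aloxe3, Grhl2, Spint1, Trp63 and Jup, higher in them. Of these, Krtdap and Grhl3 entered the test only through KLF4-labelled cells, and Grhl2 and Jup only through IRF8-labelled cells. Their calls are therefore favoured by construction. Evpl was 3.32-fold (limma adjusted p = 0.000528), Dmkn 3.76-fold (0.0002), Spint2 2.00-fold (0.00176), Tgm1 1.88-fold (0.00157) and Grhl1 1.64-fold (0.00675) lower in IRF8-labelled cells. Spint1 was 3.74-fold higher (0.00197), and Grhl2 at least 2.07-fold higher (0.00109). With the replicate block, Dsp was also called lower (limma adjusted p = 0.00634, against 0.0879 without the block) and Krt14 (0.0244, against 0.0775), Pkp3 (0.0496, against 0.110) and Sfn (0.0498, against 0.197) higher in IRF8-labelled cells. Single alternatives ended the calls of Trp63 (mean of its probes, 0.0780), Grhl2 (normexp, 0.190), Aloxe3 (without the first KLF4-labelled array, 0.0504) and Grhl1 (spike-in scaling, 0.0999), whose adjusted p over all alternatives began at 0.000363, 0.000107, 0.00173 and 0.00442. The sizes for Spint2 depended on the probe, with a log2 difference of -1.003 for the probe used and -0.31 for the other.

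A wider list of 109 further epithelial genes, of which 2, Flg and Sprr2a1, were not matched and 58 were tested, was read beside the members. This list too was chosen with earlier results of these data known. It holds genes not confined to epithelia, such as Alox5, so its shares are descriptive and no test of an epithelial programme. In KLF4-labelled cells 20 of the 58 were higher and 5 lower than control (34.5% and 8.62%, against 10.4% and 8.87% of all genes), with a median log2 difference of 0.02 beside -0.16 for all genes. The 5 higher genes with the largest fitted differences, a ranking that does not hold against a control below background, were Cers3, the ceramide synthase of the skin barrier (log2 difference 8.52, with 1 control array above background), Anxa8, an annexin (at least 89.3-fold), Alox5, a leukotriene enzyme also made by leukocytes (at least 8.84-fold), Dst, a plakin of hemidesmosomes (at least 2.50-fold), and the membrane protein Pmp22 (11.8-fold). The limma adjusted p of these 5 ran from 2.51e-05 to 0.005, and Jam2, above background in both groups, was 9.44-fold higher. Lower genes that changed little were the claudin genes Cldn15 by -0.70 and Cldn12 by -0.35, the keratin Krt10 by -0.51 and St14, which encodes matriptase, by -0.39. The count of higher genes was 11 with spike-in scaling and 9 with normexp, where the 1373 higher of all genes became 792 and 817. That of lower genes was 14 with the replicate block and 0 with spike-in scaling (limma, with 1 at an unadjusted p under 0.05). There the 1175 lower of all genes became 4557 and 94.

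In IRF8-labelled cells 23 of the 58 were higher and 15 lower than control (39.7% and 25.9%, against 25.8% and 35.7% of all genes). Aqp3, a channel for water and glycerol in the epidermis, lay at -6.48 and -6.94 in control, 0.46 and 0.27 in IRF8-labelled and -3.91 and -4.21 in KLF4-labelled cells, at least 36.3-fold higher in IRF8-labelled cells than in control (limma adjusted p = 2.08e-05). Dst (at least 16.5-fold), Cers3 (11.96-fold, with 1 control array above background), Anxa8 (at least 4.94-fold) and the tight junction scaffold Cgn (6.81-fold, likewise with 1) were the next by fitted difference, while Emp3 (5.48-fold) and Pmp22 (5.23-fold) were measured on all 6 arrays. Among the falls were Cldn15 (13.7-fold) and Asprv1, a protease of the upper epidermis (at least 4.00-fold). Tight and gap junction genes of this list were higher in 5 and lower in 8 of 17 tested genes (29.4% and 47.1%).

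Against KLF4-labelled cells, IRF8-labelled cells were higher in 18 and lower in 19 of the 58 (31.0% and 32.8%, against 23.7% and 26.8% of all genes). Large differences upward were Aqp3 (21.5-fold), Dst (6.60-fold), the adhesion molecule Nectin1 (at least 2.73-fold), the protease inhibitor Cst6 (3.08-fold) and Emp3, a relative of Emp1 (2.27-fold). Those downward were the junctional molecule Jam2 (at least 23.8-fold), Cers3 (30.6-fold), Alox5 (at least 10.1-fold), Anxa8 (18.1-fold) and Asprv1 (at least 10.2-fold). The count of higher genes was 7 with spike-in scaling and 9 with median scaling, where the 3141 higher of all genes became 1124 and 2072.

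**Figure D4:**
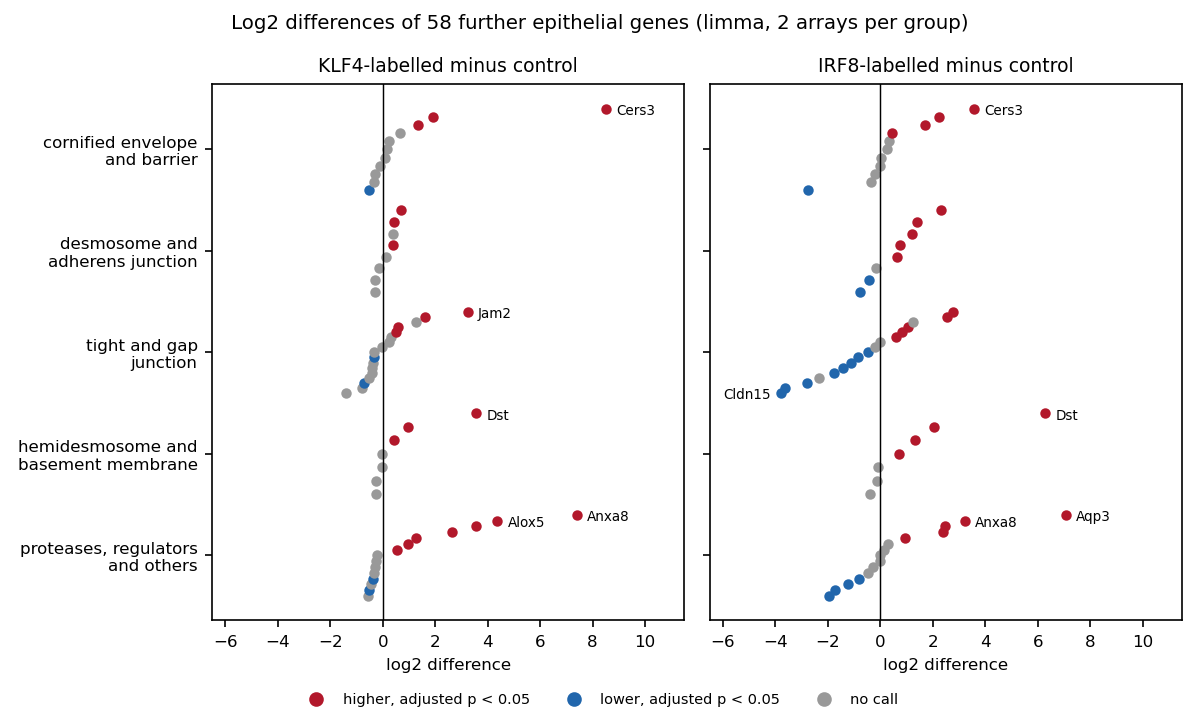
Log2 differences from control (x axis) of the 58 tested genes of the wider list in KLF4-labelled (left) and IRF8-labelled cells (right), 1 point per gene in 5 functional groups, coloured by call at a limma adjusted p under 0.05, with the largest named. Cers3 and Anxa8 lie far to the right on the left panel and Aqp3 and Dst on the right panel, and the right panel has 15 blue points to the left of 0, against 5 on the left panel.

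Markers of the cell types the cultures could hold were read beside these genes. Of 11 keratinocyte markers, Ivl, Krt1 and Dsg3 were above background on 0 arrays and Lor on 1, and their summed level relative to the 75th percentile was 87.8 to 88.1 in control, 26.3 to 27.3 in IRF8-labelled and 64.0 to 68.9 in KLF4-labelled cells. Nearly all of that sum was the Dmkn probe in control and KLF4-labelled cells, and a smaller part of it in IRF8-labelled cells. Without Dmkn the sum was 5.64 to 6.30, 9.76 to 11.7 and 5.75 to 5.91. In IRF8-labelled cells most of this rest was the single Trp63 probe, at log2 3.36 and 3.07. Of 8 simple epithelium markers, Krt8, Krt19 and Elf3 were above background on 0 arrays, and the sum was 0.342 to 0.843, 0.346 to 0.444 and 0.255 to 0.369 in the same order. Of 9 markers of fibroblasts, which could stem from virus-producing cells, Dcn, Lum, Pdgfra, Pdgfrb and Fn1 were above background on 0 arrays. The sum of these 9 was 0.271 to 0.297, 0.205 to 0.285 and 2.17 to 2.27, highest in KLF4-labelled cells, where Thy1 rose 21.6-fold (limma adjusted p = 0.000307). Without Thy1 the sum was 0.184 to 0.193, 0.156 to 0.223 and 0.139 to 0.236, and the other tested markers of the list, Col1a1 and Col1a2, were not called in KLF4-labelled cells (log2 differences -0.82 and 0.21, limma adjusted p = 0.284 and 0.359). All 7 myeloid progenitor markers were above background on all 6 arrays, with a sum of 1582 to 2179 in control, 620.5 to 771 in IRF8-labelled and 1156 to 1813 in KLF4-labelled cells. In IRF8-labelled cells 4 of these 7 were called lower and 2 higher than in control (57.1% and 28.6%, against 35.7% and 25.8% of all genes), and so few genes say little beside those shares. The sum of 7 of 8 monocyte and macrophage markers was 31.1 to 36.9, 567 to 682 and 178 to 179. In RNA of pooled cells, fewer cells of a type and less RNA per cell cannot be told apart, and the part of Thy1-bearing cells or of differentiation in the values above was not tested.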

How the data were processed

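RNA from Tot2 cells, labelled with 1 dye, was hybridised to 6 Agilent mouse arrays, 2 per group. Per the file headers, the deposited values are intensity: spot brightness, background-corrected within each array by Agilent Feature Extraction 10.7.3.1 (per the submitters' processing notes), with no scaling between arrays. The submitters' value table, also deposited as intensity, was an alternative. It holds the processed signal scaled between arrays, with a 75th percentile of 506 on every array. That is a scaling much like the one used here, so it is no independent check.

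Control spots were left out (59305 spots of 55681 probes stayed), replicate spots averaged, and the processed signal was divided by the array's 75th percentile and put on the log2 scale. Of 28390 probes with an accession of the RefSeq form, 26762 were matched to a gene (RefSeq, GRCm38.p6). The array's own build is mm9, so no gene coordinates are given beyond the promoter windows. The brightest probe stood for a gene; 13 of the 41 members had 2 probes, of which both were above background somewhere for 4, 1 for 7 and neither for 2. Genes that both arrays of any group read well above background entered 1 limma fit (limma 3.58.1, R 4.3.3) of all 6 arrays with 3 groups, 2-sided, with Benjamini-Hochberg adjustment over all 13245 genes and a threshold of 0.05. An exact permutation test of 2 against 2 arrays cannot give a p below 0.333, so none was used. The number of arrays limits the precision. The procedure was tested on simulated data.

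Members and lists were chosen with earlier results of these data known. All 41 members are named; those measured on both arrays of a group are given on 6 arrays, others by the arrays above background and their range, and of the wider list up to 5 genes per comparison and direction with the largest change past the threshold; a few that this names are not reported here and stay in the counts. Ehf, Epcam and Ovol1 were set apart, and Thy1 named, after their values were seen.

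The replicate number is that of the experiment and of the slide. Same-numbered arrays deviated together from their group means, at r = 0.283 (control with IRF8-labelled), 0.321 (control with KLF4-labelled) and 0.391 (IRF8-labelled with KLF4-labelled). The second arrays were also the brighter in every group. Their 75th percentiles were 852 (control), 880 (IRF8-labelled) and 974 (KLF4-labelled), against 551, 436 and 536 for the first. Experiment, slide and brightness cannot be told apart in these correlations. Block values stand beside calls they changed. Normexp used the median spot and background signals in the files. Other alternatives were median, quantile and spike-in scaling (8 probes), the deposited value table, other filters, the mean of a gene's probes, limma with trend and robust settings, only the groups compared, and leaving out each array.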

Additional observations from a re-analysis of the deposited data

How the results depend on the processing

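With an array left out, the remaining array of its group is assumed to vary like the other groups; with 2 arrays per group and dim probes, small differences are beyond the reach of these data, and the cause of a changed call was not tested unless fewer genes entered. Requiring signal on all 6 arrays leaves 14 members, of which 0 were higher in KLF4-labelled cells than in control (limma, with 1 at an unadjusted p under 0.05), 2 higher in IRF8-labelled cells than in control and 2 higher than in KLF4-labelled cells. Over all 11662 genes left, these counts were 1040, 2819 and 2739. In other settings too, calls over all genes fell with those of the lists. The 1373 higher in KLF4-labelled cells than in control became 792 with spike-in scaling, 817 with normexp and 825 of 20263 with no filter. The 2 members lower in KLF4-labelled cells became 0 with median or spike-in scaling (2 at an unadjusted p under 0.05 in each) and with no filter (3), 1 with quantile normalization, normexp or only the 2 groups, 4 with the replicate block, and 0 to 3 with an array left out. For the wider list in KLF4-labelled cells against control, the 20 higher became 11 with spike-in scaling, 9 with normexp, 10 with no filter, 12 with signal on all 6 arrays and 10 to 15 with an array left out. The 5 lower became 1 with median scaling, normexp or no filter, 3 with quantile normalization or the value table, 0 with spike-in scaling (1 at an unadjusted p under 0.05), 8 with signal on all 6 arrays, 2 with only the 2 groups, 14 with the replicate block and 1 to 2 with an array left out. In the wider list, signal on all 6 arrays gave 9 lower in IRF8-labelled cells than in control and 10 lower than in KLF4-labelled cells. The 18 higher than in KLF4-labelled cells became 9 with median scaling, 7 with spike-in scaling, 10 with normexp, 11 with no filter and 10 to 16 with an array left out. Members above background in control numbered 24 with the looser flag of a positive and significant signal or on 1 of the 2 arrays, and 16 to 23 with an array left out, an alternative chosen after seeing the data. Another 168 summary counts stayed within 1.5 times of the count reported, and no called difference of a member changed sign. For single genes, 58 calls were lost and 27 gained over all alternatives, 11 of these with the replicate block, which changed no other call of a member.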
